A study of Homo sapiens with 4 samples.

Results

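The genes described here are 10 feedback inhibitors and outputs of the ERK pathway: the dual-specificity phosphatases DUSP4, DUSP5, DUSP6 and DUSP7, the Sprouty genes SPRY1, SPRY2 and SPRY4, the Spred genes SPRED1 and SPRED2, and PHLDA1. They were taken by name as every probe set annotated to only 1 of these symbols, which gave 25 probe sets for the 10 genes out of 19775 genes with such a probe set. Messenger RNA had been measured on 4 one-colour Affymetrix arrays of HCT116, an established human colorectal adenocarcinoma line, with 1 array per group. HCT116 cells carried a vector for shRNA #1 targeting KSR1 (hairpin #1), a vector for shRNA #2 targeting KSR1 (hairpin #2) or a non-targeting shRNA vector (shCTRL), or were left untransfected. Per the labels, the vectors were introduced by lipofection and clones were selected with puromycin, which the untransfected group is not stated to have received, and the labels do not say whether an array stands for 1 clone or for several. The medium was the same in all groups. KSR1 is a scaffold protein that brings RAF, MEK and ERK together, and the design asks which transcripts differ when its level is lowered.

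ERK switches on genes that restrain it, and these genes are widely read as a gauge of how active the pathway is. MAP kinase phosphatases of the DUSP family remove phosphate from ERK, in the nucleus (DUSP4, DUSP5) or in the cytoplasm (DUSP6, DUSP7). Sprouty proteins act higher up, between receptor tyrosine kinases and RAS or RAF, and Spred proteins bind neurofibromin and bring it to RAS at the membrane. In colorectal cells with an activated RAS pathway these transcripts are part of the usual ERK output.

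The deposited intensities were linear, and the array medians lay between 50.7 and 52.0. KSR1 itself, on its brightest probe set, had an intensity of 141 with hairpin #1 and 171 with hairpin #2, against 211 in shCTRL and 209 in untransfected cells, or -0.53 and -0.28 log2 units relative to shCTRL, of which the second lay inside the spread between arrays defined below. The other 3 KSR1 probe sets were dim, between 27.8 and 60.4, and differed from shCTRL by -0.13 to 0.04 log2 units with either hairpin. In RNA of a whole culture, fewer expressing cells and less RNA per cell cannot be told apart. The epithelial markers EPCAM, CDH1, KRT8, KRT18 and KRT19 were bright on all arrays, VIL1 (at most 62.6) and CDX2 (79.9 to 131) were much dimmer, and CDH17 was under the filter. KRT20, a marker of differentiated colon epithelium, read 52.5 with hairpin #1 and 275 with hairpin #2, against 63.7 in shCTRL and 166 in untransfected cells. The summed intensity of 9 such markers was 35050 with hairpin #1, 45250 with hairpin #2, 37590 in shCTRL and 37190 in untransfected cells, so it was highest in the hairpin #2 array, on which several results below rest. Of 9 fibroblast markers 3 were bright enough to pass the filter described below, as were 1 of 5 leukocyte and 1 of 4 endothelial markers measured. The brightest of them was COL1A1, at 372 with hairpin #1, 395 with hairpin #2, 400.2 in shCTRL and 433 in untransfected cells. The leukocyte gene PTPRC lay between 15.5 and 17.4 on the 4 arrays. The summed intensity of the fibroblast markers was 611 with hairpin #1, 635 with hairpin #2, 662 in shCTRL and 690 in untransfected cells. The leukocyte and endothelial sums were also lower with both hairpins, at 161 and 173 against 190 and 196, and at 125 in each against 135 and 139. Most of these markers were under the filter, and their median log2 values were not lower with both hairpins. The fibroblast medians were 5.46 and 5.48 with the hairpins against 5.43 in each control. Those of leukocyte markers were 5.58 and 5.39 against 5.57 and 5.54, and of endothelial markers 5.02 in each against 5.00 and 5.05. For RNA quality, the actin control's 3' signal divided by its 5' signal was 2.01 with hairpin #1, 2.22 with hairpin #2, 2.09 in shCTRL and 2.68 in untransfected cells. The same ratio of the GAPDH control was 1.14, 1.19, 1.17 and 1.16 in that order, so it did not set the untransfected array apart. The part of these ratios and of the marker levels in any result below was not tested.

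The KSR1 hairpins did not separate the feedback genes as a group from both controls. Log2 differences below are of log2(intensity + 16), which understates differences of dim probe sets, and folds are plain ratios of intensities. Of the 25 probe sets, 22 reached the filter, a mean log2 value of 6.08, and all 10 genes were among them. Both hairpin arrays lay above both other arrays for 4 of the 22 and below them for 3, while over all 27281 probe sets tested these shares were 22.8% and 17.6%. The median difference of both hairpin arrays minus both others was 0.01 over the members and 0.02 over all probe sets tested. That contrast averages opposite directions. Relative to shCTRL the members' median was -0.10 with hairpin #1 (15 of 22 lower) and -0.26 with hairpin #2 (12 of 22 lower), while relative to untransfected cells it was 0.10 (16 of 22 higher) and 0.13 (13 of 22 higher). Over all probe sets tested these 4 medians lay between 0.01 and 0.03. Of all probe sets tested, 52.9% were higher with hairpin #1 than in shCTRL and 51.5% with hairpin #2. Relative to untransfected cells the shares higher were 55.1% and 53.9%. The 2 hairpin #2 counts of members were near these shares. The comparisons share arrays, and the members' median in shCTRL was 0.12 above untransfected cells. By limma 0 of 22 passed an adjusted p of 0.05, as did 0.00% of all probe sets tested (0 of 27281), with 2010 at an unadjusted p under 0.05. The unadjusted level was reached by 2 member probe sets, 1 each of PHLDA1 and SPRY1, against 7.37% of all probe sets tested. This fit has 2 residual degrees of freedom and measures the spread between different hairpins and between the 2 kinds of control, not between cultures of 1 kind. An exact two-sided permutation test of 2 arrays against 2 cannot go below p = 0.333, and no difference of 1 array from another can be checked on replicates.

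What the members did show was a wide range over the 4 arrays, centred on a few genes. For 6 of the 22 probe sets the highest and lowest array were at least 1 log2 unit apart, against 3.44% of all probe sets tested. Those 6 belonged to DUSP6 (3 probe sets), SPRY1, SPRY4 and PHLDA1, and probe sets of 1 gene share their RNA. Such a range was not particular to the members. Among the related genes set beside them below, DUSP10, ETV1, FOSL1 and LIF also spread by at least 1 log2 unit. As a measure of spread, 95% of all tested probe sets differed by less than 0.48 log2 units between hairpin #1 and shCTRL, 0.65 between hairpin #2 and shCTRL, and 0.52 between shCTRL and untransfected cells. The corresponding bounds against untransfected cells were 0.55 for hairpin #1 and 0.69 for hairpin #2, and between the hairpin arrays 0.60. The members beyond these bounds were 5 of 22 for hairpin #1 and 6 of 22 for hairpin #2 relative to shCTRL, 6 and 8 relative to untransfected cells, 5 for shCTRL relative to untransfected cells and 4 between the hairpins. The bound itself leaves 5.00% of all probe sets outside in each comparison.

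**Figure D1:**
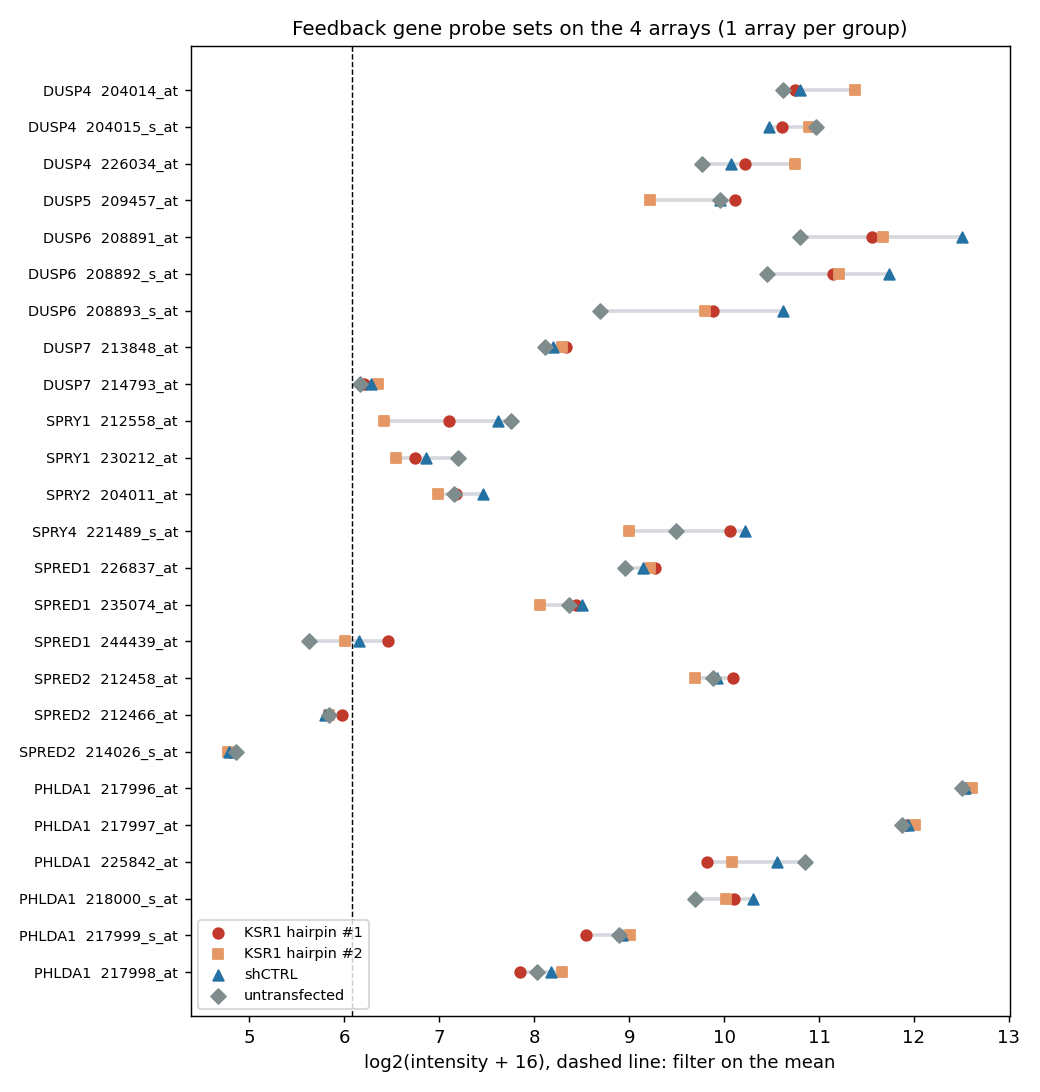
Log2(intensity + 16) of the 25 probe sets of the feedback genes (rows) on the 4 arrays, 1 symbol per array, with the grey line spanning lowest to highest and the dashed line at the filter of 6.08. The 3 DUSP6 probe sets have shCTRL at the high end and untransfected cells at the low end, whereas the 2 brightest PHLDA1 probe sets barely spread.

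DUSP6, the cytoplasmic phosphatase that is specific for ERK, had the widest range, and both hairpin arrays lay between the 2 controls. Probe set 208891_at read 3003 with hairpin #1 and 3253 with hairpin #2, against 5805 in shCTRL and 1772 in untransfected cells. Probe set 208892_s_at read 2258 and 2356 with the hairpins, against 3407 in shCTRL and 1384 in untransfected cells. Probe set 208893_s_at read 931 and 877 with the hairpins, against 1555 in shCTRL and 397 in untransfected cells. The order of the groups was thus the same on all 3 probe sets apart from the hairpin arrays, which differed from each other by at most 0.12 log2 units, inside the spread. The first and the second share their target sequence record, so the probe sets are not independent.

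The DUSP6 difference had the opposite sign depending on the control. Relative to shCTRL the 3 probe sets stood at -0.95, -0.59 and -0.73 log2 units for hairpin #1, and -0.83, -0.53 and -0.81 for hairpin #2. All but the -0.53 lay beyond the spread between the arrays concerned. Relative to untransfected cells they read 0.76, 0.70 and 1.20 log2 units for hairpin #1 and 0.87, 0.76 and 1.11 for hairpin #2, all beyond the spread. The largest DUSP6 differences were between the controls: shCTRL was 3.28-fold, 2.46-fold and 3.91-fold above untransfected cells. These 3 were the only member probe sets at least 1 log2 unit higher in shCTRL than in untransfected cells, a size reached by 0.352% of all probe sets tested, and 0 were lower by that much (0.356%). Over both hairpin arrays against both others, DUSP6 differed by -0.04 (SE 0.56) on 208891_at, with a limma adjusted p of 0.99. The order with shCTRL highest, untransfected cells lowest and both hairpins between was seen for 4 of 22 member probe sets, the other being 218000_s_at of PHLDA1, and for 7.46% of all probe sets tested. Vector, transfection, selection, clone and array differ together between shCTRL and untransfected cells and cannot be told apart.

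DUSP4, a nuclear phosphatase of ERK and other MAP kinases, was highest with hairpin #2 on 2 of its 3 probe sets. Probe set 204014_at read 1697 with hairpin #1 and 2645 with hairpin #2, against 1760 in shCTRL and 1558 in untransfected cells. Probe set 226034_at read 1180 and 1700 with the hairpins, against 1063 in shCTRL and 856 in untransfected cells. On both of these, hairpin #2 stood above the other 3 arrays, by 0.58 and 0.67 log2 units relative to shCTRL, of which only the second exceeded the spread, and by 0.76 and 0.98 relative to untransfected cells, both beyond it. Relative to hairpin #1 the steps were 0.64, beyond the spread, and 0.52, inside it. Probe set 204015_s_at had another order, with 1551 and 1888 for the hairpins, against 1403 in shCTRL and 1983 in untransfected cells, so that the untransfected array was its highest. The suffix _s_at marks a probe set that can match more than 1 transcript. It is also carried by the only SPRY4 probe set and by some probe sets of DUSP6, SPRED2 and PHLDA1. The limma differences were 0.35 (SE 0.23), 0.56 (SE 0.22) and 0.04 (SE 0.21) for 204014_at, 226034_at and 204015_s_at, each with an adjusted p of 0.66 or above. Without hairpin #2 the difference on 204014_at was 0.035, and without hairpin #1 it was 0.67.

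DUSP5, a nuclear phosphatase that acts on ERK alone, was low in a single array. Its probe set 209457_at read 1094 with hairpin #1 and 579 with hairpin #2, against 977 in shCTRL and 981 in untransfected cells. The controls differed by 0.01 log2 units in size, hairpin #1 was 0.16 above shCTRL, inside the spread, and hairpin #2 was 0.593-fold its level, at -0.74 log2 units, beyond the spread. Both hairpin arrays against both others gave -0.29 (SE 0.31, limma adjusted p = 0.80). With 1 hairpin above both controls and the other below both, DUSP5 was 1 of 4 such member probe sets of 22, against 14.1% of all probe sets tested. DUSP7, the close cytoplasmic relative of DUSP6, stayed within the spread throughout. Probe set 213848_at read 307 with hairpin #1 and 298 with hairpin #2, against 278 in shCTRL and 260 in untransfected cells, and so both hairpin arrays were above both others by a small step. Its dim second probe set 214793_at read 57.8 and 65.6 with the hairpins, against 61.7 in shCTRL and 55.9 in untransfected cells. The 2 nuclear phosphatases thus differed from shCTRL in opposite directions with hairpin #2, DUSP5 lower and all 3 DUSP4 probe sets higher, although 2 of those 3 stayed inside the spread.

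**Figure D2:**
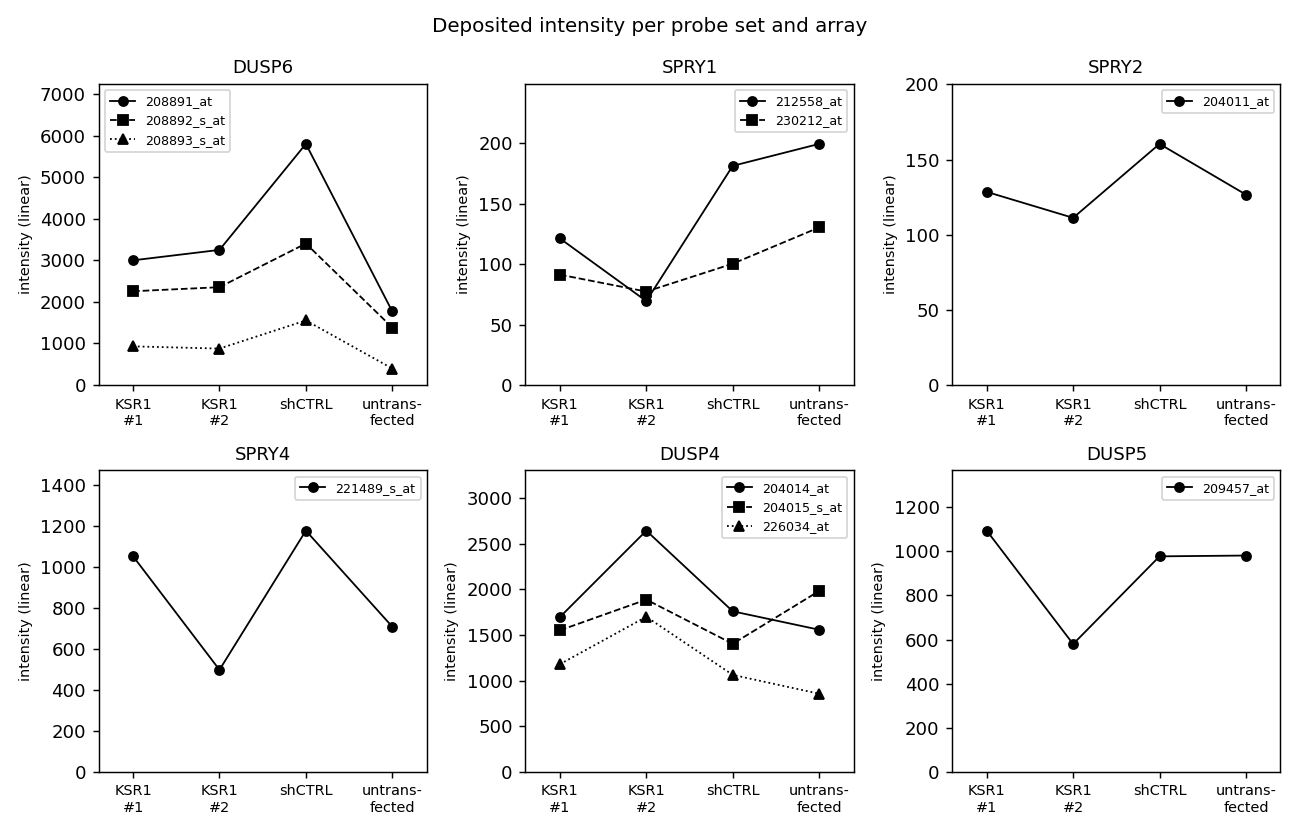
Deposited linear intensity of every probe set of DUSP6, SPRY1, SPRY2, SPRY4, DUSP4 and DUSP5 on the 4 arrays (left to right hairpin #1, hairpin #2, shCTRL, untransfected), with lines joining the values of 1 probe set and each axis starting at 0. DUSP5 dips with hairpin #2 alone, at 579, SPRY4 is lowest with hairpin #2, at 497, and next lowest in untransfected cells, at 707, and DUSP6 peaks in shCTRL.

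The Sprouty genes were lowest with hairpin #2 on all 4 of their probe sets, and over all probe sets tested that array was lowest for 25.5%. SPRY1 was the member with both hairpin arrays farthest from both controls. Its probe set 212558_at read 121 with hairpin #1 and 69.4 with hairpin #2, against 181 in shCTRL and 199 in untransfected cells. The hairpin arrays did not overlap the controls, which differed by 0.13 log2 units in size. Hairpin #1 was 0.669-fold and hairpin #2 0.383-fold the shCTRL level, at -0.52 and -1.21 log2 units, both beyond the spread. Over both hairpins the difference was -0.93 (SE 0.24), with an unadjusted limma p of 0.0137 and an adjusted p of 0.66. The second probe set, 230212_at, had the same order, with 91.3 and 77.3 for the hairpins, against 100.3 in shCTRL and 130 in untransfected cells, but smaller steps (-0.12 and -0.32 relative to shCTRL, inside the spread). The filter corresponds to an intensity of 51.7, and the hairpin #2 values were the nearest to it on both probe sets.

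SPRY4, another Sprouty member induced by ERK, separated the hairpins from each other. Its single probe set 221489_s_at read 1050 with hairpin #1 and 497 with hairpin #2, against 1175 in shCTRL and 707 in untransfected cells. Hairpin #1 stood beside shCTRL, at -0.16 log2 units, and hairpin #2 was 0.423-fold the shCTRL level, at -1.22. Relative to untransfected cells the difference was 0.56 with hairpin #1, just past the spread, and -0.50 with hairpin #2, inside it. The step between hairpin #2 and hairpin #1, -1.06 log2 units, was the only one of a full log2 unit among the 22 member probe sets, against 0.667% of all probe sets tested that were lower and 0.773% that were higher by that much. In shCTRL SPRY4 was 1.66-fold above untransfected cells (0.72 log2 units), beyond the spread. SPRY2, the best known human Sprouty, was dim, with 129 for hairpin #1 and 111 for hairpin #2, against 160 in shCTRL and 127 in untransfected cells. All its differences lay inside the spread, the largest being -0.47 for hairpin #2 relative to shCTRL.

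Counted by the size rule of 1 log2 unit against shCTRL, hairpin #1 had 0 of 22 member probe sets higher (0.106% of all tested) and 0 lower (0.323%). Hairpin #2 had 0 higher (0.799%) and 2 lower (0.861%), the 2 being SPRY1 212558_at and SPRY4. The 2 comparisons share the shCTRL array. Relative to untransfected cells, hairpin #1 had 1 higher (0.271%), the third DUSP6 probe set, and 1 lower (0.440%), PHLDA1 225842_at, while hairpin #2 had 1 higher (0.990%), again of DUSP6, and 1 lower (0.953%), SPRY1 212558_at. At the smaller size of 0.5 log2 units relative to shCTRL, hairpin #1 had 0 higher (2.23%) and 5 lower (2.24%), and hairpin #2 had 2 higher (4.68%), both of DUSP4, and 6 lower (4.21%). In shCTRL relative to untransfected cells, 5 were higher (3.23%) and 0 lower (2.42%) at that size. The 5 lower with hairpin #1 were the 3 of DUSP6 with SPRY1 and PHLDA1, and the 6 lower with hairpin #2 were the 3 of DUSP6 with DUSP5, SPRY1 and SPRY4.

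**Figure D3:**
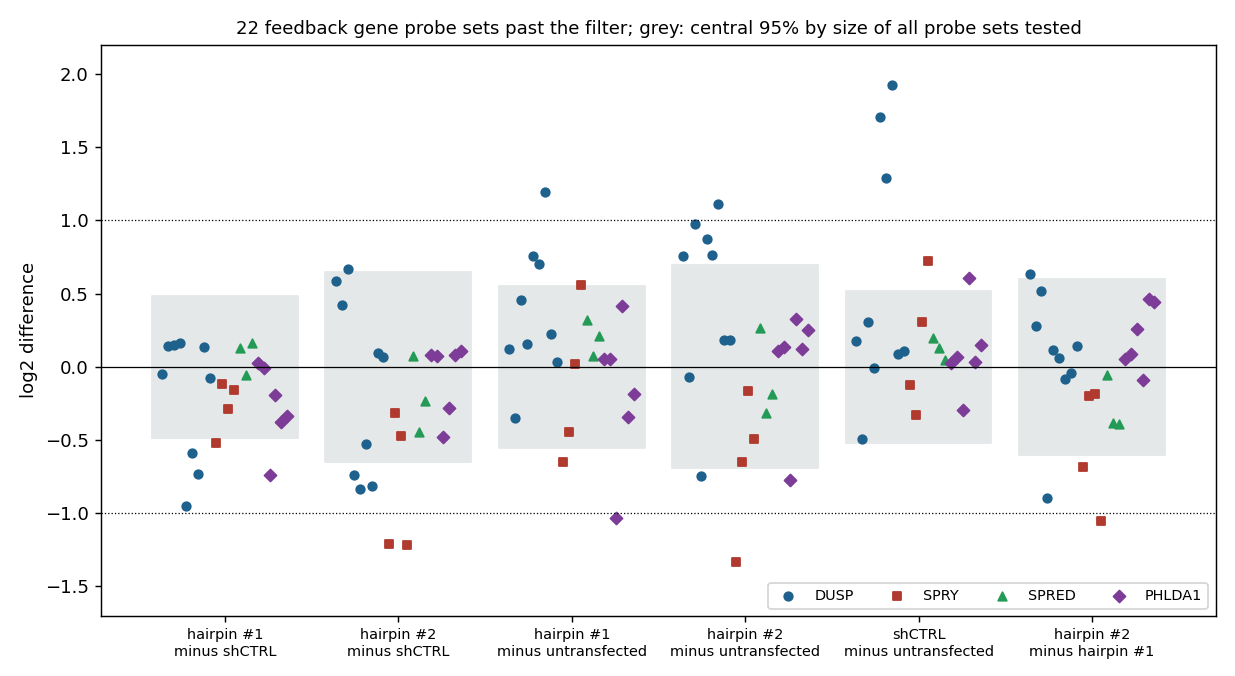
Log2 differences of the 22 member probe sets past the filter in 6 comparisons of single arrays, coloured by gene family, with the grey band holding 95% of all 27281 probe sets tested and dotted lines at 1 log2 unit. DUSP6, SPRY4 and 218000_s_at of PHLDA1 stand above the band in the comparison of shCTRL with untransfected cells. For hairpin #2 minus shCTRL, SPRY1 212558_at, SPRY4, DUSP5 and the DUSP6 probe sets 208891_at and 208893_s_at stand below it.

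The Spred genes differed little. SPRED1, which recruits neurofibromin to RAS, read 603 with hairpin #1 and 579 with hairpin #2, against 550 in shCTRL and 479 in untransfected cells, on probe set 226837_at. Both hairpin arrays were above both controls there, by 0.07 log2 units at the nearest arrays. On 235074_at it read 332 and 250 with the hairpins, against 346 in shCTRL and 315 in untransfected cells, so the separation did not appear on that probe set. The third SPRED1 probe set, 244439_at, had 72.3 and 48.5 with the hairpins, against 55.5 in shCTRL and 33.5 in untransfected cells, and with a mean log2 value of 6.07 was just under the filter. SPRED2 had 1073 with hairpin #1 and 813 with hairpin #2, against 958 in shCTRL and 927 in untransfected cells, on 212458_at. Its other 2 probe sets, 212466_at and 214026_s_at, were too dim to test, at 39.6 to 47.1 and 11.3 to 13.0 over the 4 arrays. No SPRED1 or SPRED2 difference from a control on a tested probe set exceeded the spread.

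PHLDA1, a pleckstrin homology domain gene induced by ERK and by stress, was steady on its 2 brightest probe sets and lower with both hairpins on 1 of the other 4. Probe set 217996_at read 6026 with hairpin #1 and 6254 with hairpin #2, against 5913 in shCTRL and 5797 in untransfected cells, a range of 0.11 log2 units. Probe set 217997_at had a range of 0.14. In contrast, 225842_at read 889 with hairpin #1 and 1068 with hairpin #2, against 1492 in shCTRL and 1839 in untransfected cells, so the hairpin arrays lay below both controls without overlap. Hairpin #1 was at -0.74 log2 units and hairpin #2 at -0.48 relative to shCTRL, of which the second stayed inside the spread, and they were at -1.03 and -0.78 relative to untransfected cells. Over both hairpins the limma difference was -0.76 (SE 0.16, unadjusted p = 0.00571, adjusted p = 0.66). This was the smallest unadjusted p among the members.

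The other 3 PHLDA1 probe sets had further orders. Probe set 218000_s_at followed DUSP6, with 1088 and 1020 for the hairpins, against 1244 in shCTRL and 810 in untransfected cells. On 217999_s_at hairpin #1 was lowest and hairpin #2 highest, at 358 and 499, against 470 in shCTRL and 458 in untransfected cells. The same held on 217998_at, at 214 and 297, against 274 in shCTRL and 246 in untransfected cells. All differences on these 2 probe sets lay inside the spread. The 6 probe sets of PHLDA1 therefore did not give the gene a common direction. The platform annotation used here names each probe set's target record but not the part of the transcript it reads.

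Promoter sequence is shown for the 3 members with the widest range over the arrays, since ERK acts on such genes through ETS-family transcription factors. The sequences are from RefSeq, build GRCh38.p14, where 8 of the 10 members matched, and run 5' to 3' on the gene's strand, 250 bases before to 50 after a start site. Capitals mark CGGAA, the only form of the ETS core searched for here, on either strand (TTCCG on the other). The windows lie at chr12:89352452-89352751 (minus strand) for DUSP6, chr4:123396545-123396844 (plus strand) for the most upstream start of SPRY1, and chr5:142324198-142324497 (minus strand) for SPRY4.
DUSP6: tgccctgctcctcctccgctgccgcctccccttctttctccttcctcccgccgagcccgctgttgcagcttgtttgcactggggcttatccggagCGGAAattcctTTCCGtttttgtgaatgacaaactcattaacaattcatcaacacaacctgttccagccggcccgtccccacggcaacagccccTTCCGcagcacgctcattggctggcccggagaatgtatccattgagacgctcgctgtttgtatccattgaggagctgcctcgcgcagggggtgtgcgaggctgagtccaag
SPRY1: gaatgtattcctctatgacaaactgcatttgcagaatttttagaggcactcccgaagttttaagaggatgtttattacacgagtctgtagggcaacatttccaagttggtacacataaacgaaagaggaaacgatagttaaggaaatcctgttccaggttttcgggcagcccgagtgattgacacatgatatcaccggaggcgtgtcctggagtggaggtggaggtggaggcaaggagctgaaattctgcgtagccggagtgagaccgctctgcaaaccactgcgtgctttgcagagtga
SPRY4: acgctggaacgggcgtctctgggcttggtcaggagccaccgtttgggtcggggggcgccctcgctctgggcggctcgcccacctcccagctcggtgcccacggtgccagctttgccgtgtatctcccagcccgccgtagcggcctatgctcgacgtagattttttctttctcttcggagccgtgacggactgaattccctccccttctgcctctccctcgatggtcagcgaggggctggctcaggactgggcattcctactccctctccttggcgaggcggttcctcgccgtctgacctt

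The DUSP6 window held 3 matches to CGGAA, while those of SPRY1 and SPRY4 held 0. The shorter GGAA was not counted, and it occurs in each of these 3 windows. Over all 35116 promoter windows of this length in the table, 34.9% held at least 1. A second SPRY1 window, at a start site downstream, held 1, PHLDA1 held 2, the most upstream SPRY2 window held 2 and the most upstream SPRED2 window held 1. The AP-1 motif TGANTCA, searched on both strands, occurred 2 times in the downstream SPRED2 window, in none of the other 11 member windows, and in 7.71% of all windows. The CRE TGACGTCA occurred in 0 of the 12 member windows and in 1.85% of all. These matches are letters in a window and say nothing of binding.

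Other genes of the pathway were set beside the members, taking the brightest probe set of each gene. Among the 10 members so taken, 3 had both hairpin arrays above both others and 1 below, with a median difference of -0.03, against 22.5% and 18.4% of 12468 genes and a median of 0.02. Of 7 further MAP kinase phosphatase and Spred genes that passed the filter, 2 were above and 1 below, with a median of -0.09. DUSP10, a phosphatase of JNK and p38, read 68.6 with hairpin #1 and 255 with hairpin #2, against 63.7 in shCTRL and 47.9 in untransfected cells, so hairpin #2 alone stood high. DUSP2, a nuclear phosphatase of immune cells, read 203 and 204 with the hairpins, against 147 in shCTRL and 134 in untransfected cells (difference 0.49, SE 0.10, limma adjusted p = 0.66). DUSP1 (-0.27) and DUSP8 (-0.12) differed less.

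Partners and other inhibitors of the pathway had 2 of 12 genes above and 5 below, with a median of -0.05. ERRFI1, a feedback inhibitor of EGFR, read 7920 with hairpin #1 and 6337 with hairpin #2, against 8819 in shCTRL and 10372 in untransfected cells (difference -0.43, SE 0.16). PEBP1, an inhibitor of RAF (-0.25), IL17RD, a membrane inhibitor of FGF signalling (-0.22), and the caveolar protein CAV1 (-0.19) had smaller differences. Other ERK-induced transcripts had 4 of 16 above and 1 below, with a median of 0.13. ETV1, an ETS factor of the PEA3 group, differed by -0.98 and the AP-1 subunits FOSL1 and FOS by -0.61 and 0.54, while the cytokine LIF differed by 0.41. In shCTRL the list of ERK-induced transcripts had a median 0.28 log2 units above untransfected cells, with ETV1 and FOSL1 among those going the other way. The 10 members had 0.13, with 0.02 over all genes. Cascade kinases, adaptors and scaffolds had 2 of 15 above and 5 below, with a median of 0.00, and EGFR (-0.60), KSR1 (-0.40), the exchange factor SOS1 (-0.31) and the adaptor SHC1 (-0.26) had the largest differences. None of these genes passed limma over all probe sets, the smallest adjusted p in each of the 4 lists being 0.66, and members of these lists without a probe set of a single symbol were not analysed here.

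**Figure D4:**
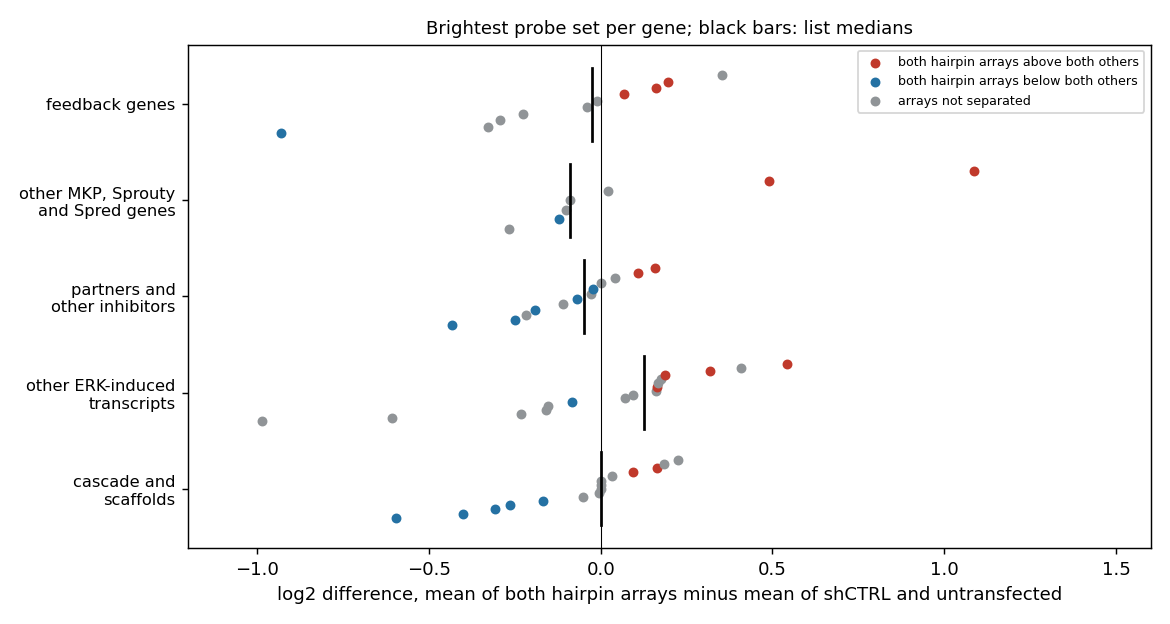
Log2 difference of the mean of both hairpin arrays minus the mean of shCTRL and untransfected cells for the 10 feedback genes and 4 lists of pathway genes (rows), 1 point per gene on its brightest probe set, coloured by whether the hairpin arrays lay beyond both others, with black bars at the medians. The medians lie between -0.09 and 0.13, and SPRY1 is the feedback gene farthest from 0.

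The genes most like the 3 members of widest range were sought among 482 other genes that spread by at least 1 log2 unit, by the root mean square difference of log2 values centred over the 4 arrays. Nearest to DUSP6 were EPB41L4A (0.10 log2 units), ANTXR1 (0.12) and PLEKHB1 (0.15). ANTXR1 had log2 levels of 8.82 with hairpin #1 and 8.97 with hairpin #2, against 9.51 in shCTRL and 8.10 in untransfected cells, again with shCTRL highest. Nearest to SPRY1 were DDIT4 (0.04), PDK1 (0.09) and CORO6 (0.10), and DDIT4 had log2 levels of 12.04 and 11.48 with the hairpins, against 12.63 in shCTRL and 12.73 in untransfected cells. Nearest to SPRY4 were ANKRD22 (0.09), ITPRIP (0.09) and BAX (0.11), and ITPRIP had log2 levels of 7.75 and 6.82 with the hairpins, against 7.83 in shCTRL and 7.34 in untransfected cells. With 4 arrays a close match is common: 11, 60 and 34 of the 482 genes lay within 0.25 log2 units of DUSP6, SPRY1 and SPRY4 in that order.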

How the data were processed

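Total RNA of 4 HCT116 samples was extracted with Trizol and labelled from 2.5 micrograms with the 1-cycle Affymetrix kit, per the labels' protocols. The deposited values were linear intensity values, 1 per probe set and array, for 54675 probe sets, and the authors' background correction, summary method and normalization were not given in the sources used here. Values were used without further scaling, as log2(intensity + 16).

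Of the probe sets, 41097 had 1 symbol in the platform annotation, 1801 had several and 11777 had none. The 62 control probe sets were left out, and the filter was a mean log2 value at or above the median of all probe sets. Hairpin arrays were compared with the others by limma 3.58.1 in R 4.3.3 (lmFit, eBayes, Benjamini-Hochberg over all 27281 probe sets tested), checked on simulated data, and single arrays by a size rule of 1 log2 unit, with no test. In the simulated data limma called 46% of the changes of 1 log2 unit, 82% of those of 2 and 94% of those of 4. On arrays the number of arrays limits the precision.

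Named genes are all members, KSR1, up to 4 genes of each pathway list by the size of the hairpin difference, and the 3 genes most like each of 3 members. Markers of cell types are named as checks of the samples, and other exceptions were chosen after their values were seen. Members and lists were chosen with earlier results of these data known.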

Additional observations from a re-analysis of the deposited data

Results flagged for a closer look

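For 4 member probe sets the 2 KSR1 hairpins lay on opposite sides of both controls, and this difference was not tested, since each hairpin has 1 array. The same order was found for 14.1% of all 27281 probe sets tested, so the count of 4 of 22 is near the background. DUSP5 (209457_at) was above both controls with hairpin #1 and below both with hairpin #2, the second minus the first being -0.90 log2 units. SPRED2 (212458_at) did the same, at -0.39. PHLDA1 did the reverse on 2 probe sets, at 0.46 on 217999_s_at and 0.44 on 217998_at. Of the 4, only the DUSP5 value exceeded 0.60, the bound that holds 95% of all tested probe sets between the hairpin arrays.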

How the results depend on the processing

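No paired analysis was possible because each group has 1 array. The limma count was 0 under all alternatives run, and the smallest adjusted p ranged from 0.0816, without the hairpin #1 array, to 0.897. Leaving out each array in turn gave 5 to 11 member probe sets with the hairpin side above the other and 4 to 10 below, since fewer arrays have to be separated, and moved the median difference between -0.18, without untransfected cells, and 0.10, without hairpin #1. The same omissions moved the DUSP6 difference between -0.89, without untransfected cells, and 0.81, without shCTRL, that of SPRY4 between -0.86 and 0.20, that of DUSP5 between -0.74 and 0.16, that of DUSP4 between 0.035, without hairpin #2, and 0.67, without hairpin #1, and that of SPRED2 between -0.21 and 0.19, while SPRY1 stayed negative, at -1.27 to -0.59. With a gene's probe sets averaged, which leaves 10 features, DUSP6 turned to 0.079, PHLDA1 to -0.12 and SPRED2 to 0.013, and the counts became 2 genes above and 1 below, 1 lower with hairpin #2 and 1 higher in shCTRL. Median centring turned SPRED2 to 0.010. With the brightest probe set per gene, 1 gene was below both controls and 1 higher in shCTRL. The filter at the 75th percentile, which no SPRY1 or SPRY2 probe set reached, left 1 below and 1 lower with hairpin #2. A pseudocount of 64 left 1 lower with hairpin #2. At 0.5 log2 units, 5 were lower with hairpin #1 than in shCTRL, 2 higher and 6 lower with hairpin #2, and 5 higher in shCTRL than in untransfected cells. The members' median, 0.01 as reported, was -0.028 after quantile normalization, -0.025 with the brightest and -0.054 with averaged probe sets per gene. The cause of these shifts was not tested beyond what is stated. The other counts stayed within 1.5 times, and the other differences of single genes kept their sign wherever the gene was tested.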
